A study of Homo sapiens with 12 samples.

Results

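Toll-like receptors are membrane proteins of innate immune cells that recognise conserved microbial molecules, and the 10 genes described here are 7 of them (TLR1, TLR2, TLR4, TLR5, TLR6, TLR7 and TLR8), the coreceptors CD14 and LY96, and the adaptor MYD88. They were chosen by symbol, and every probe set that the array annotation assigns to 1 of these symbols was taken, which gave 16 of the 54675 probe sets on the array. TLR4 had 4 probe sets, TLR6, TLR7 and TLR8 had 2 each, and the other 6 genes had 1 each. Where a gene had several they are numbered from the highest to the lowest mean over all arrays, and number 1 stands for the gene. All 10 genes were among the 19775 genes tested, and no filter on dim signals was applied.

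The data are 12 Affymetrix HG-U133 Plus 2.0 arrays of U937 cells, an established human line from a histiocytic lymphoma that resembles monocyte precursors, in 4 groups of 3 arrays that the labels call biological replicates 1 to 3. In the group PMA with doxycycline, cells received 0.5 µg/mL doxycycline daily for 4 days and, from the end of the first 2 days, 100 nM PMA, a protein kinase C activator under which U937 cells take on macrophage features, for 3 days; the durations are those of the labels. The PMA group had the same agent without doxycycline, and the groups vehicle with doxycycline and vehicle received 0.1% DMSO in its place. All 4 groups carried the puromycin-selected TRIPZ Tet-On cassette, from which doxycycline induces a hairpin RNA against ZXDC1 and ZXDC2, products of the zinc finger gene ZXDC. No array of cells without the cassette or with another hairpin was analysed here, so the drug and the hairpin cannot be told apart in these groups.

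The median signal lay between 5.16 and 5.22 (log2) on all arrays. ZXDC averaged 7.28 ± 0.23 (log2, SD, n = 3) in PMA with doxycycline and 7.78 ± 0.24 in PMA, and 7.28 ± 0.14 against 7.78 ± 0.20 in the vehicle groups with and without the drug. It was lower with doxycycline in 6 of 6 same-numbered pairs, with an averaged difference of -0.50 and a two-sided exact permutation p of 0.005, the smallest that 400 relabelings within agents can give. By limma's adjusted test ZXDC was not called, with an adjusted p of 0.613 in PMA, 1.00 in vehicle and 0.420 averaged over both agents. Of 10 monocytic markers 8 were measured, and 7 of these were above the median probe set in each group. The exception was MPO, myeloperoxidase, at 4.14 to 4.33. The integrin gene ITGAM averaged 11.73 in PMA and 6.92 in vehicle. Group means of 14 markers of other cell types lay between 2.71 for KDR and 7.32 for COL1A1, and 6 of them, COL1A1 included, were also above the median probe set in each group. On the 4 arrays numbered 1 the ACTB controls for RNA integrity differed more between their 3' and 5' ends, by 1.99 to 2.72 (log2), against 0.71 to 1.64 on the other 8. The GAPDH controls did not set these arrays apart. Their 3' minus 5' difference was 0.17 to 0.25 on the arrays numbered 1 and 0.12 to 0.25 on the other 8.

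TLR2 pairs with TLR1 or TLR6 at the cell surface to detect bacterial lipopeptides, and TLR4 detects bacterial lipopolysaccharide that CD14 hands to LY96, the MD-2 subunit bound to TLR4. TLR5 detects flagellin at the surface, while TLR7 and TLR8 detect single-stranded RNA in endosomes. MYD88 links these receptors to IRAK kinases and NF-kB. Monocytes and macrophages are a main site of TLR2, TLR4 and CD14, and the factor PU.1 is known to act on several of these genes in myeloid cells.

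The table of RefSeq promoters held 7 of the 10 genes. The promoters of 4 genes are shown, 3 whose signal rose with PMA and, beside them, TLR4, whose signal did not pass the test; each is the 250 bases before the annotated start on GRCh38.p14, 5′ to 3′ on the strand of the gene. Capitals mark letters that match the PU.1 and ETS core GAGGAA, the AP-1 motif TGANTCA or the SP1 motif GGGCGG on either strand. The windows are chr4:153684030-153684279, plus strand for TLR2; chr5:140633176-140633425, minus strand for CD14; chr4:38856818-38857067, minus strand for TLR6; and chr9:117704153-117704402, plus strand for TLR4.
TLR2: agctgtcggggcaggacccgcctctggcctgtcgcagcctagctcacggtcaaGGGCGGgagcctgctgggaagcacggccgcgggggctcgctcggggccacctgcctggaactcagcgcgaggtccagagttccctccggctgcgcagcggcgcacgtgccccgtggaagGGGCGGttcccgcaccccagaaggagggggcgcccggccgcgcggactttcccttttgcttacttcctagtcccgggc
CD14: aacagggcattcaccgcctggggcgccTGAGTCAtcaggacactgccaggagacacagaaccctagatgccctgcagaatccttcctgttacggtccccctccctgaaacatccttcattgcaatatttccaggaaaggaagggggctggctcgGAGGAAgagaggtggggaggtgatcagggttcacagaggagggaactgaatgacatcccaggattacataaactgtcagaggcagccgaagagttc
TLR6: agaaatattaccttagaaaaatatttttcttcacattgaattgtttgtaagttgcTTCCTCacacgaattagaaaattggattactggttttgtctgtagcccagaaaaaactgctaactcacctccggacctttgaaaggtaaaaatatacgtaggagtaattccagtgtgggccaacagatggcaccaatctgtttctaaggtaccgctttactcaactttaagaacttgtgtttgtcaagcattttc
TLR4: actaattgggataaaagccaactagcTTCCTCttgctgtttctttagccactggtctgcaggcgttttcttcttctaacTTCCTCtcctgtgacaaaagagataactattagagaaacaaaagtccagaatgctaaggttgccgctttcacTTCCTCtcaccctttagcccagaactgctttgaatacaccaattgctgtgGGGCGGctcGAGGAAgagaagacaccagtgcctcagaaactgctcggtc
TLR4 held the PU.1 core 4 times and the SP1 motif 1 time, CD14 the PU.1 core 1 time and the AP-1 motif 1 time, TLR6 the PU.1 core 1 time, and TLR2 the SP1 motif 2 times; no 2 of these matches overlapped. Over all 35116 promoters of the table, 23.6% held the PU.1 core, 6.57% the AP-1 motif and 42.6% the SP1 motif in a window of this length. A match of letters is no evidence of binding, and none was measured here.

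The first comparison asked what PMA did to these genes with the hairpin off. LY96, TLR1, CD14, TLR2 and TLR6 rose, while TLR4, TLR5, TLR7, TLR8 and MYD88 did not pass the test. The 5 genes that rose make up 5 of 10, against 12.7% of all genes that rose, 18.9% that fell and 31.7% that changed in either direction by limma with Benjamini-Hochberg adjustment. The members were chosen with earlier results of these data known, so such shares, here and below, are no test of the set. The PMA arrays lay wholly above the vehicle arrays for the same 5 genes and wholly below for TLR8, against 18.8% and 23% of all genes. The median difference of the 10 genes was 0.76 (log2), against 0.01 over all genes. Because RNA was taken from whole cultures, more cells with a transcript and more transcript per cell cannot be told apart.

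**Figure D1:**
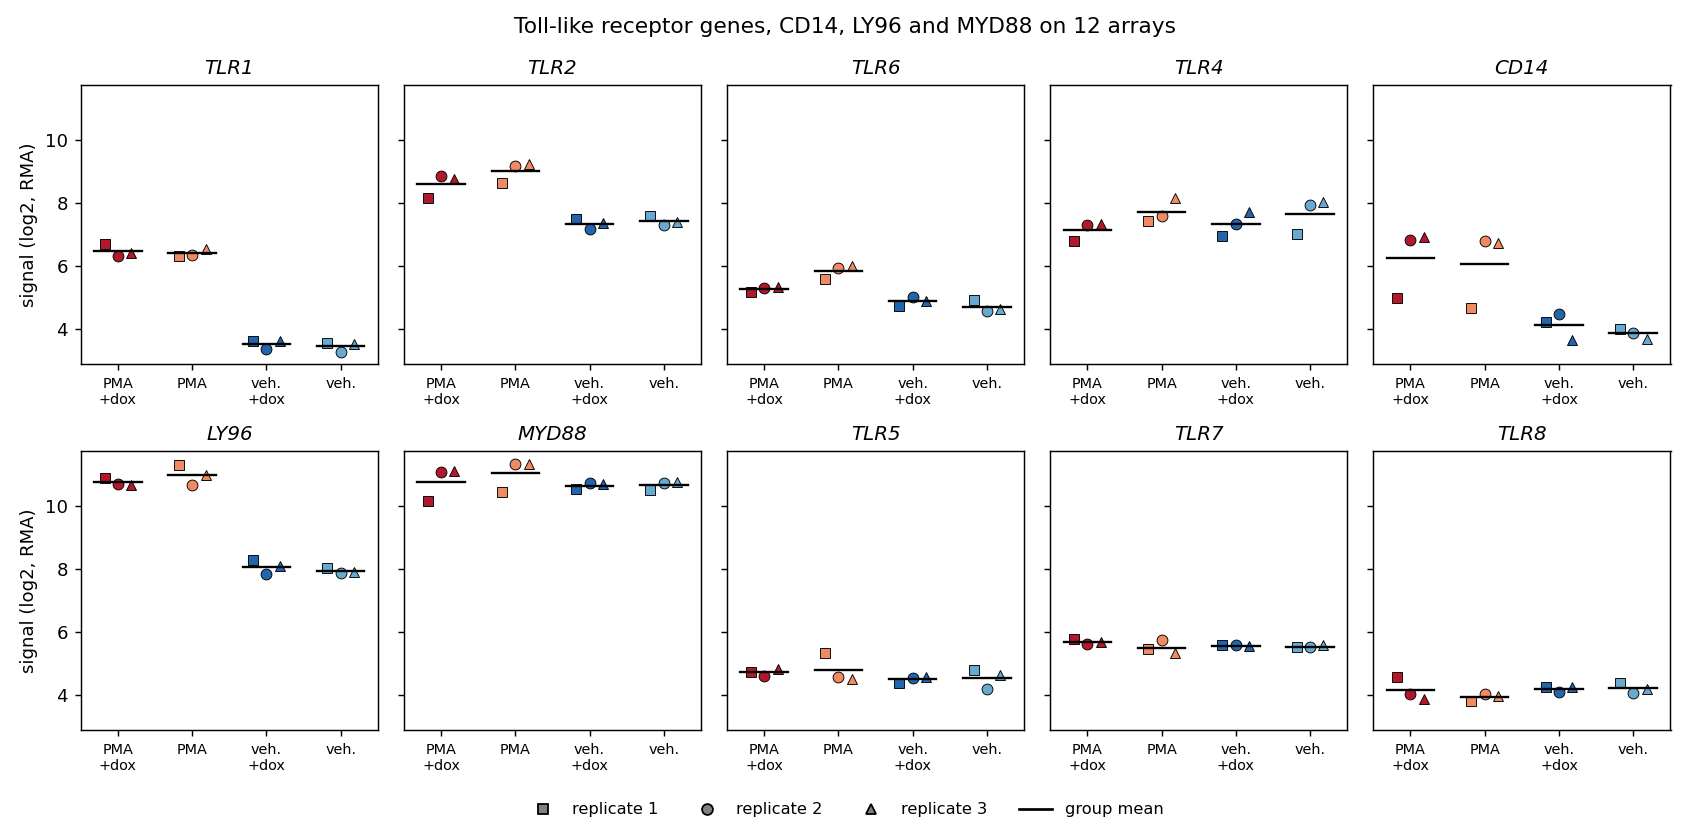
Signal (log2, RMA) of the 10 genes on each of the 12 arrays, read from the probe set with the highest mean of each gene, with groups from left to right PMA with doxycycline, PMA, vehicle with doxycycline and vehicle; squares, circles and triangles are replicates 1, 2 and 3 and bars are group means. TLR1 and LY96 are higher on all 6 PMA arrays than on all 6 vehicle arrays with little spread, whereas CD14 is at 4.67 and 4.99 on the PMA arrays numbered 1 and at 6.74 to 6.92 on the other 4.

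The surface receptors of the TLR2 group rose together. TLR1, the partner of TLR2 for triacylated lipopeptides, read 6.32, 6.35 and 6.54 on the PMA arrays, against 3.54, 3.28 and 3.51 on the vehicle arrays. The groups lay far apart, and the difference was 2.96 (log2, SE 0.13), or 7.77-fold, with an adjusted p of 1.26e-09. The TLR1 mean was at percentile 67.6 of all probe sets in PMA and at percentile 20.1 in vehicle, where the signal is dim and the size of the change is least certain. TLR2 itself read 8.64, 9.18 and 9.23 in PMA, against 7.58, 7.32 and 7.40 in vehicle. Every PMA array was above every vehicle array, by a mean difference of 1.58 (SE 0.19, adjusted p = 1.62e-05), with the PMA array numbered 1 the lowest of its group. TLR6, the partner of TLR2 for diacylated lipopeptides, read 5.58, 5.95 and 6.01 in PMA, against 4.93, 4.56 and 4.63 in vehicle on its probe set of higher mean. Its groups did not overlap either, and the difference was 1.14 (SE 0.14, adjusted p = 1.92e-05). TLR6 probe set 2 read 3.73, 3.99 and 4.52 in PMA and 3.42, 3.53 and 3.23 in vehicle. Its difference was 0.69 (SE 0.17, adjusted p = 0.00727 over all 54613 probe sets). In all 6 of the 16 probe sets were called, against 23.6% of all probe sets. TLR1 and TLR6 lie next to each other on chromosome 4, beside TLR10, and are close in sequence; shared signal between their probe sets was not tested.

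Of the genes for recognition of lipopolysaccharide, both coreceptors rose and the receptor did not pass the test. LY96 read 11.33, 10.68 and 10.99 in PMA, against 8.05, 7.87 and 7.92 in vehicle. The groups lay far apart, with a difference of 3.05 (SE 0.16), or 8.295-fold, and an adjusted p of 6.66e-09. It was the largest of the 10 differences over all arrays, but by less than 1 SE over TLR1, and on the arrays numbered 2 and 3 it was 2.94, below TLR1 at 3.05 and CD14 at 2.99. Without PMA replicate 1 it was 2.89, below TLR1 at 3.00 and CD14 at 2.91. CD14 read 4.67, 6.80 and 6.74 in PMA, against 4.02, 3.89 and 3.67 in vehicle. The arrays did not overlap, but the PMA array numbered 1 was much closer to vehicle than the other PMA arrays, and the group mean of 6.07 ± 1.21 (SD, n = 3) has the widest spread among these genes. The difference of CD14 was 2.21 (SE 0.54, adjusted p = 0.00536) over all arrays, 2.91 without PMA replicate 1, and 2.99 (adjusted p = 5.67e-07) on the arrays numbered 2 and 3. Without PMA replicate 2 it was 1.84 (adjusted p = 0.032), and without PMA replicate 3 it was 1.88 (adjusted p = 0.032). TLR4 was measured by 4 probe sets, none of which passed the test. On probe set 1 it read 7.44, 7.59 and 8.16 in PMA, against 7.01, 7.93 and 8.04 in vehicle, so the groups overlapped widely. Its difference was 0.07, with a 95% interval of -0.53 to 0.66 (adjusted p = 0.896). The other TLR4 probe sets differed by 0.33 (probe set 2, adjusted p = 0.140), -0.16 (probe set 3) and -0.02 (probe set 4). TLR4 probe sets 1, 3 and 4 are of types whose sequence may be shared with other transcripts. Probe set 2 is not, and it was higher with PMA in all 3 same-numbered pairs, though its groups overlapped. It had a 95% interval of 0.01 to 0.65 and a limma p of 0.0435 before adjustment.

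The adaptor MYD88 did not pass the test over all arrays. It read 10.47, 11.36 and 11.35 in PMA, against 10.53, 10.73 and 10.78 in vehicle. PMA replicate 1 was below all vehicle arrays and the other PMA arrays were above them. Over all arrays the difference was 0.38 (95% interval -0.17 to 0.93, adjusted p = 0.314), and without PMA replicate 1 it was 0.67 (adjusted p = 0.0353). On the arrays numbered 2 and 3 alone it was 0.60 (adjusted p = 0.000952).

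TLR5, the flagellin receptor, read 5.33, 4.57 and 4.50 in PMA, against 4.80, 4.20 and 4.63 in vehicle. The groups overlapped, with a difference of 0.25 (95% interval -0.17 to 0.68, adjusted p = 0.404). The endosomal receptors TLR7 and TLR8, neighbours on the X chromosome, showed no call on any of their 4 probe sets. TLR7 differed by -0.03 (95% interval -0.27 to 0.21) on probe set 1 and by -0.10 on probe set 2, whose mean in PMA lay at percentile 5.87 of all probe sets. The sequence of TLR7 probe set 1 may be shared with other transcripts. On TLR8 probe set 1 the signal was 3.81, 4.04 and 3.96 in PMA, against 4.37, 4.06 and 4.20 in vehicle. These arrays lay just apart, with a difference of -0.27 (95% interval -0.61 to 0.07, adjusted p = 0.238). TLR8 probe set 2 lay apart in the opposite direction, with a difference of 0.28 (adjusted p = 0.127).

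With the hairpin induced, PMA was compared with vehicle on 6 other arrays. LY96, TLR1, CD14, TLR2 and TLR6 rose here too, and none of the 10 fell. The comparisons with and without doxycycline are not independent, because same-numbered arrays deviated together and the fit shares its estimate of the spread. The call was made for 5 of 10 genes and 4 of 16 probe sets, against 32.5% of all genes (13% rose and 19.5% fell) and 24.5% of all probe sets. The arrays lay wholly higher with PMA for these 5 genes and for TLR5 and TLR7, 7 of 10 against 18.1% of all genes. The median difference was 0.31 (log2) for the 10 genes and -0.01 over all genes.

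**Figure D2:**
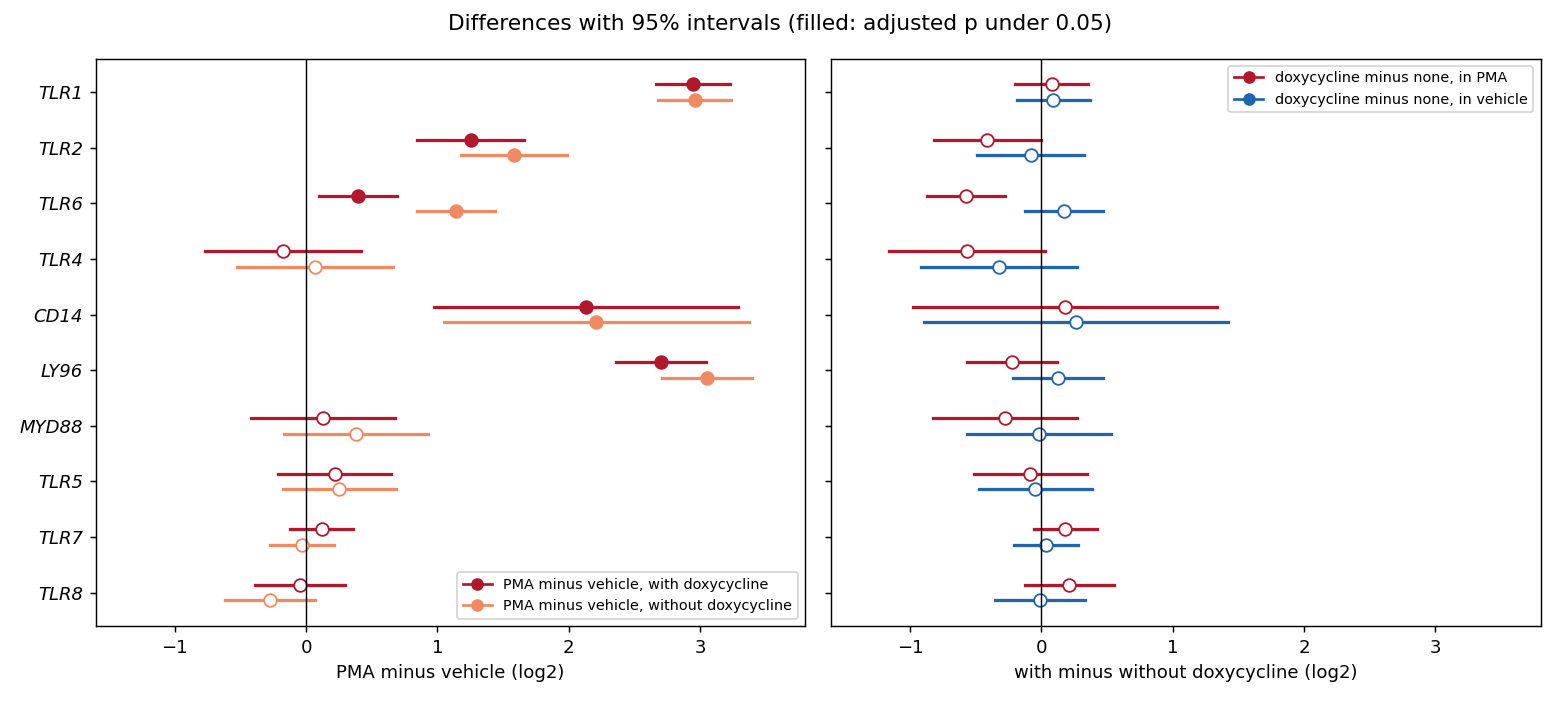
Differences (log2, horizontal axis) of the 10 genes with 95% intervals from limma: PMA minus vehicle on the left, with doxycycline above and without below, and with minus without doxycycline on the right, in PMA above and in vehicle below; filled points have an adjusted p under 0.05. TLR1 and LY96 lie near 3 with narrow intervals, CD14 has the widest interval, and no point on the right is filled.

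TLR1 read 6.71, 6.32 and 6.42 in PMA with doxycycline, against 3.62, 3.37 and 3.62 in vehicle with doxycycline. Its difference of 2.95 (SE 0.13, adjusted p = 1.23e-09) was within 1 SE of that without doxycycline. LY96 read 10.92, 10.73 and 10.69, against 8.30, 7.84 and 8.09, a difference of 2.70 (SE 0.16, adjusted p = 1.91e-08). TLR2 read 8.18, 8.86 and 8.79 in PMA with doxycycline, against 7.49, 7.20 and 7.37 in vehicle with doxycycline. It was again lowest in PMA on the array numbered 1, and differed by 1.25 (SE 0.19, adjusted p = 0.000114). CD14 read 4.99, 6.84 and 6.92 in PMA with doxycycline, against 4.23, 4.49 and 3.64 in vehicle with doxycycline. The difference was 2.13 (SE 0.54, adjusted p = 0.00662) over all arrays and 2.81 (adjusted p = 8.56e-07) on those numbered 2 and 3.

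TLR6 was the least stable of the 5. On probe set 1 it read 5.18, 5.31 and 5.34 in PMA with doxycycline, against 4.73, 5.03 and 4.88 in vehicle with doxycycline. The groups did not overlap and the difference was 0.40 (95% interval 0.10 to 0.69, adjusted p = 0.0417), but the adjusted p rose to 0.0557 over all probe sets and to 0.0667 by the mean of both TLR6 probe sets. The call was also lost without PMA with doxycycline replicate 2 (0.38, adjusted p = 0.106) or 3 (0.37, adjusted p = 0.119), without vehicle with doxycycline replicate 1 (0.32, adjusted p = 0.146) or 3 (0.40, adjusted p = 0.0942), and without vehicle replicate 3 (0.40, adjusted p = 0.0536). TLR6 probe set 2 differed by 0.30 (adjusted p = 0.241).

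MYD88 read 10.16, 11.08 and 11.12 in PMA with doxycycline, against 10.54, 10.73 and 10.70 in vehicle with doxycycline. As without doxycycline, the PMA array numbered 1 was the lowest of all and the others were above both groups' remaining values. The difference was 0.13 (adjusted p = 0.776), and 0.38 (adjusted p = 0.0169) on the arrays numbered 2 and 3. On their probe sets of highest mean TLR4, TLR5, TLR7 and TLR8 differed by -0.18, 0.22, 0.12 and -0.05, none past the test. TLR8 probe set 2 differed by 0.34 (adjusted p = 0.063 by limma over all probe sets). Its PMA arrays lay wholly higher, as without doxycycline, but its signal was dim, with a mean at percentile 15.3 in vehicle with doxycycline.

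**Figure D3:**
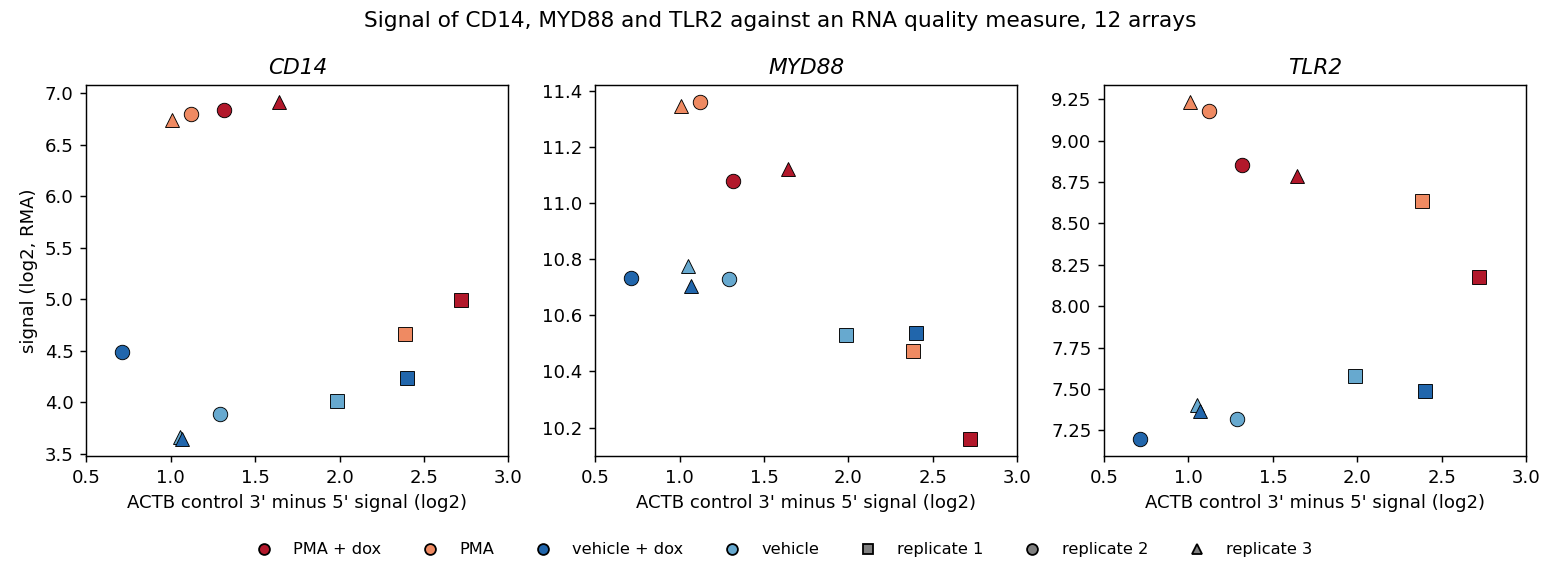
Signal (log2, RMA, vertical axis) of CD14, MYD88 and TLR2 on each of the 12 arrays against the ACTB 3' minus 5' difference (log2, horizontal axis), with colours for groups and squares for the arrays numbered 1. The PMA arrays numbered 1 lie to the right, at 2.39 and 2.72, and below the other 4 PMA arrays for all 3 genes, while the vehicle arrays numbered 1 lie to the right without a like drop in CD14 or TLR2.

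The size of the PMA effect differed by replicate number for some of these genes. Between arrays of the same number, which are not assumed to be paired across agents, CD14 differed by 0.65, 2.91 and 3.07 for numbers 1 to 3 without doxycycline, and by 0.76, 2.35 and 3.27 with it. MYD88 differed by -0.06, 0.63 and 0.57 without doxycycline, and by -0.38, 0.34 and 0.42 with it. For TLR2 the values were 1.06, 1.86 and 1.83 without doxycycline and 0.69, 1.66 and 1.42 with it. Number 1 gave the lowest difference for these 3 genes in both comparisons. TLR6 differed by 0.66, 1.38 and 1.38 without doxycycline, with number 1 the lowest, but by 0.45, 0.28 and 0.46 with it. TLR5 went the other way, with number 1 the highest, at 0.53, 0.36 and -0.13 without doxycycline and 0.35, 0.06 and 0.24 with it. LY96 differed by 3.28, 2.81 and 3.07 without doxycycline, with number 1 the highest. TLR1 differed by 2.77, 3.07 and 3.03 without doxycycline, with number 1 the lowest, and by 3.09, 2.95 and 2.80 with it, with number 1 the highest. The ACTB 3' minus 5' signal was 2.72, 1.32 and 1.64 in PMA with doxycycline and 2.39, 1.12 and 1.01 in PMA; its part in these differences was not tested.

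Doxycycline in PMA-treated cells addressed the question of the study, which genes the hairpin against ZXDC changes during differentiation. None of the 10 genes passed limma's adjusted test, against 0.00506% of all genes. Unadjusted, limma gave 2 with a p under 0.05, TLR6 and TLR2, both lower, against 6.14% of all genes, and 3 of 16 probe sets, against 5.93%. The arrays with doxycycline lay wholly below those without for TLR4 and TLR6, against 5.9% of all genes, and for 4 of 16 probe sets, against 5.35%.

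**Figure D4:**
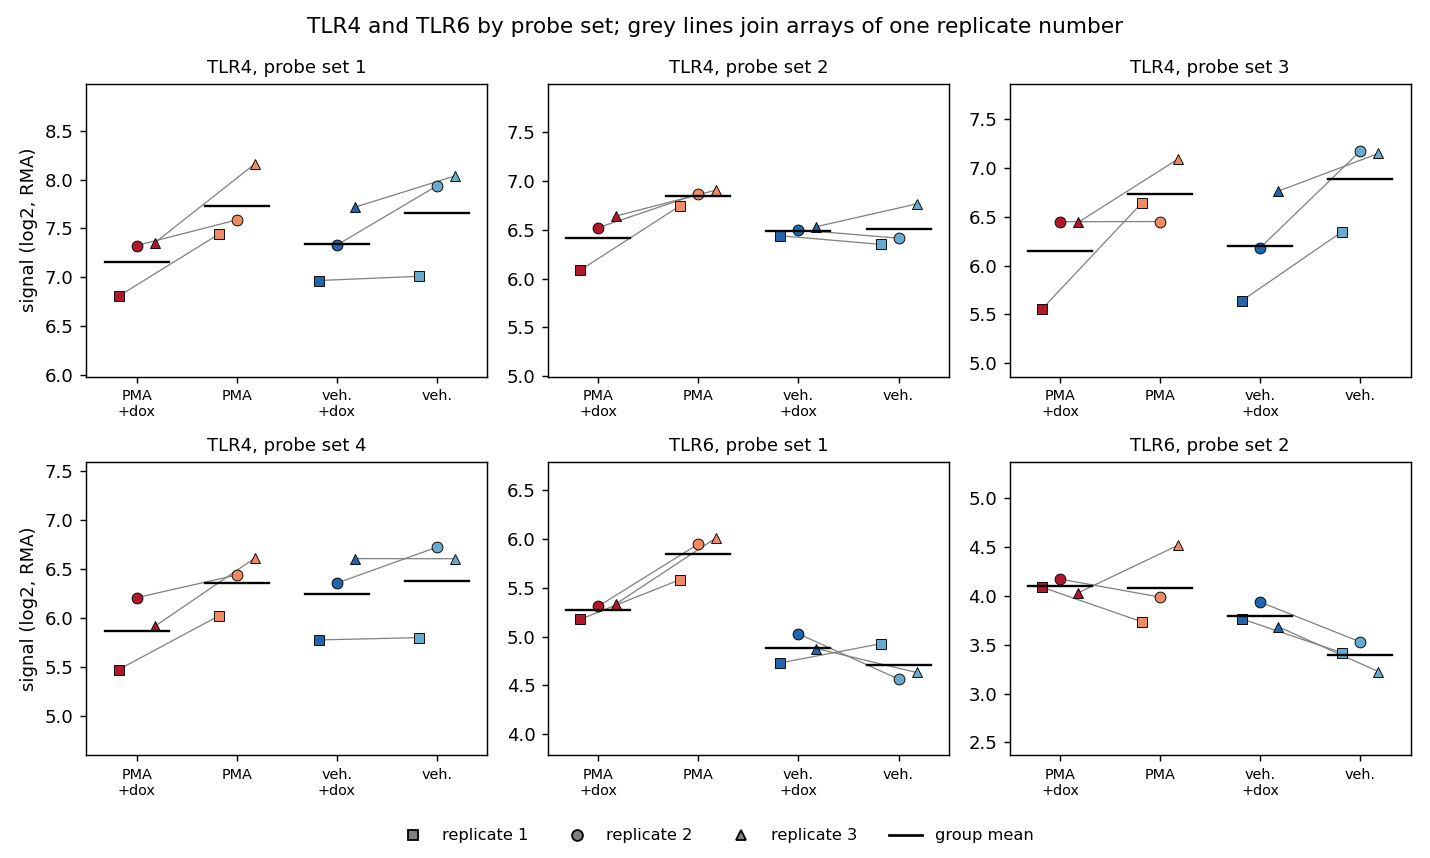
Signal (log2, RMA) of the 4 TLR4 and 2 TLR6 probe sets on each array, groups from left to right PMA with doxycycline, PMA, vehicle with doxycycline and vehicle, with bars for group means and grey lines between arrays of 1 replicate number; each panel spans the same range of 3 log2 units. All 4 TLR4 probe sets have lower means in PMA with doxycycline than in PMA, by 0.42 to 0.58, and the 2 TLR6 probe sets differ from each other.

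TLR4 had lower means with doxycycline on all 4 probe sets, which measure 1 gene on the same arrays and are not independent. Probe set 1 read 6.80, 7.32 and 7.35 in PMA with doxycycline, against 7.44, 7.59 and 8.16 in PMA. The arrays lay just apart, with a difference of -0.57 (95% interval -1.16 to 0.03, adjusted p = 0.817). Probe set 2 read 6.09, 6.52 and 6.64, against 6.75, 6.87 and 6.91 in PMA, a difference of -0.42 (adjusted p = 0.745 by limma over all probe sets, 0.0131 before adjustment). The differences of probe sets 3 and 4 were -0.58 and -0.49. The groups overlapped on probe set 4, and on probe set 3 the arrays numbered 2 had nearly equal signals, 6.45 each. In vehicle-treated cells the 4 probe sets differed by -0.32, -0.02, -0.69 and -0.13 in the order of their numbers. Probe set 3 had a limma p of 0.0435 before and an adjusted p of 1.00 after adjustment. Averaged over both agents, a comparison chosen after seeing the data, no gene passed limma's adjusted test, and TLR4 was the 1 of 10 with an unadjusted p under 0.05, against 6.06% of all genes. Probe set 3 differed by -0.64, with an unadjusted two-sided exact permutation p of 0.035. It was the only 1 of the 16 probe sets under 0.05 by that test, against 5.76% of all probe sets.

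TLR6 gave different answers on its probe sets. On probe set 1 the PMA arrays with doxycycline, at 5.18, 5.31 and 5.34, were all below those without, at 5.58, 5.95 and 6.01, a difference of -0.57 (95% interval -0.87 to -0.28, adjusted p = 0.432 by limma, 0.00107 before adjustment). On probe set 2 the same groups overlapped, with 4.09, 4.17 and 4.03 in PMA with doxycycline and 3.73, 3.99 and 4.52 in PMA, a difference of 0.02. The change of the PMA effect with doxycycline, tested as an interaction, was -0.75 (SE 0.20) for TLR6 probe set 1, with an adjusted p of 1.00 by limma (0.00206 before adjustment). No gene of the 19775 passed the interaction test, and 2.62% had an unadjusted p under 0.05. Among the other 9 genes the interaction lay between -0.35 for LY96 and 0.22 for TLR8, none with an unadjusted p under 0.05.

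TLR2 read 8.18, 8.86 and 8.79 in PMA with doxycycline, against 8.64, 9.18 and 9.23 in PMA. The groups overlapped, but each array with doxycycline was below its same-numbered partner, by 0.32 to 0.46. The difference of -0.41 had a 95% interval of -0.82 to -0.0047 (adjusted p = 0.807) in the main limma fit, which did not use the pairing. With same-numbered arrays fitted as 6 pairs the adjusted p of TLR2 was 0.0807, also not called. TLR2 and the TLR4 probe sets 1 and 3 were lower in all 6 same-numbered pairs of both agents, 3 of 16 probe sets against 3.31% of all probe sets. MYD88 was also lower in 3 of 3 PMA pairs, with a difference of -0.27 (95% interval -0.82 to 0.27). The ACTB 3' minus 5' signal was higher with doxycycline in the same 3 PMA pairs, and its part in these differences was not tested. CD14 had overlapping groups, though each PMA array with doxycycline was above its same-numbered partner, with a difference of 0.18 and the widest interval, -0.97 to 1.34. TLR1 (0.08, 95% interval -0.20 to 0.36) and LY96 (-0.22, 95% interval -0.56 to 0.12) had narrower intervals. TLR5, TLR7 and TLR8 differed by -0.08, 0.18 and 0.21.

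In vehicle-treated cells none of the 10 genes passed the adjusted test, none had an unadjusted p under 0.05 by limma, against 2.58% of all genes, and no gene on the array was called. Of the 16 probe sets 2 had an unadjusted p under 0.05, against 2.84%. The differences ran from -0.32 for TLR4 to 0.26 for CD14. TLR6 probe set 2 read 3.76, 3.94 and 3.68 in vehicle with doxycycline, against 3.42, 3.53 and 3.23 in vehicle, all higher, with a difference of 0.40 (adjusted p = 1.00 by limma, 0.0306 before adjustment).

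By group mean, the order of the 4 groups differed among the genes that rose. For LY96 and TLR2 it was PMA, PMA with doxycycline, then both vehicle groups, whose means differed by 0.13 for LY96 and -0.08 for TLR2, less than the SE of either difference. For TLR1 and CD14 PMA with doxycycline had the highest mean, above PMA by 0.08 and 0.18, both within the spread of the arrays. TLR6 averaged 5.27 ± 0.09 in PMA with doxycycline and 5.85 ± 0.23 in PMA, and 4.88 ± 0.15 in vehicle with doxycycline and 4.71 ± 0.19 in vehicle (SD, n = 3 each).

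Other genes of Toll-like receptor signalling were read from lists, of which 52 of 55 genes were measured; 20 rose and 3 fell with PMA without doxycycline, with a median difference of 0.23, against 12.7% that rose and 18.9% that fell over all genes. Of the other receptors TLR10, the neighbour of TLR1, rose by 0.52 (SE 0.15, adjusted p = 0.0175) on a probe set whose sequence may be shared with other transcripts, and TLR3 and TLR9 did not pass the test. Coreceptors and trafficking genes rose in 3 of 7 members. CD36, a scavenger receptor that aids TLR2 with TLR6, averaged 10.07 in PMA and 6.43 in vehicle, a difference of 3.65 (SE 0.51, adjusted p = 6.29e-05). CD180, a receptor-like relative of TLR4, rose by 2.12 (SE 0.13).

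Adaptors rose in 2 of 3 measured members, TICAM1, the TRIF adaptor of TLR3 and TLR4 (0.70, SE 0.12), and SARM1 (0.37, SE 0.13). Kinases and ligases rose in 3 and fell in 2 of 16 members, against 12.7% that rose and 18.9% that fell over all genes. IRAK2, a kinase of the MYD88 complex, rose by 1.03 (SE 0.19) and the ubiquitin ligase gene TRAF6 by 0.75 (SE 0.15). IRAK3, the IRAK-M protein that restrains Toll-like receptor signalling in monocytes, averaged 6.84 in PMA and 8.49 in vehicle and fell by 1.65 (SE 0.16, adjusted p = 2.39e-06). The tyrosine kinase gene BTK fell by 0.68 (SE 0.12).

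Inhibitors rose in 3 of 5 members, with TNFAIP3, the A20 protein, up by 2.06 (SE 0.15) and CYLD up by 0.60 (SE 0.16). Of 6 transcription factor genes IRF7 rose by 2.32 (SE 0.43) and NFKB1 fell by 0.40 (SE 0.13). Genes that these receptors induce rose in 7 of 12 measured members, among them CXCL8 (6.11, SE 0.49) and CCL4 (3.46, SE 0.80), and 0 fell. The probe sets of TNFAIP3, CYLD, IRF7 and CXCL8 are, like that of TLR10, of types whose sequence may be shared with other transcripts. No Toll-like receptor ligand is named in the labels. With doxycycline PMA raised 20 and lowered 3 of the 52 genes, against 13% that rose and 19.5% that fell over all genes; the totals equal those without doxycycline, but the counts by list differ, with 1 adaptor and 4 kinases and ligases higher. Doxycycline called 0 of 52 by limma in either agent, against 0.00506% of all genes in PMA and 0% in vehicle.

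The genes whose signal over the 12 arrays was most like that of LY96, the gene with the largest rise over all arrays without doxycycline, were PECAM1, an adhesion molecule (Pearson r = 0.996), SLAMF7, a surface receptor of the SLAM family (r = 0.996), and LRCH1 (r = 0.995). They rose by 3.32, 4.84 and 1.61 with PMA without doxycycline. The 12 points fall into PMA and vehicle arrays, so a rise with PMA that is large against its spread can by itself give a high r. A positive r of 0.95 or more was found for 629 genes, and of the other 9 members 1, TLR1, was among them. No member fell past the test, so none was matched for a fall.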

How the data were processed

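The authors deposited log2 signals; the submitters' processing notes name RMA, whose version is not stated there. No scaling was added. RNA was labelled from 100 ng per array. Of the probe sets, 62 were controls, 41091 had 1 gene symbol, 1801 several and 11721 none in the table used; 41037 symbols were updated through the Entrez number. Each gene was read from its single-symbol probe set of highest mean, and every member probe set was also tested among all 54613 non-control probe sets.

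A limma 3.58.1 model (R 4.3.3, lmFit then eBayes) with 1 mean per group took in the 12 arrays (8 residual and 5.6 prior degrees of freedom), two-sided, with calls at a Benjamini-Hochberg adjusted p under 0.05. Unless left-out arrays or another setting are named, adjusted p-values and intervals in the text come from this fit. It was run over genes or, for a named further probe set, over probe sets. With arrays left out, the model was fitted again to the rest. The fit was tested on simulated data. The doxycycline difference averaged over both agents, also tested by exact permutation within agents, was chosen for the members after seeing the data.

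Same-numbered arrays with and without doxycycline deviated together (correlations 0.64, 0.29 and 0.32 in PMA, 0.57, 0.25 and 0.31 in vehicle). They were therefore counted as pairs, but the pairing entered a fit only in the replicate-block alternatives. Neither the main limma fit nor the exact permutation within agents used the pairing. The p-values of both and the limma intervals therefore treat the arrays as unpaired. Across agents the correlations were 0.16, -0.01 and 0.15 without doxycycline, and no pairing was assumed. Named genes were all members, up to 2 called genes in each direction per list, and the 3 genes most correlated with the member of largest rise. Members, lists and tests were chosen with earlier results of these data known. Alternatives covered the probe set choice, dim genes, normalization, arrays fitted, replicate blocks, the prior and left-out arrays. The labels call the arrays biological replicates and say no more, and 3 arrays per group limit the precision.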

Additional observations from a re-analysis of the deposited data

How the results depend on the processing

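The number of members called for PMA without doxycycline was 5, and 5 or 6 under 22 alternatives, with 5 to 6 when 1 array was left out; the added gene was MYD88, without PMA replicate 1 and on numbers 2 and 3 only. With doxycycline it was 5, and 4 to 6 under 22 alternatives (4 to 5 with 1 array left out). For TLR6 that call was lost under 7 of them, among them the mean of its probe sets and adjustment over all probe sets. Member probe sets called were 6 without doxycycline (5 to 7 over the alternatives, 6 to 7 with 1 array left out) and 4 with it (4 to 5 with 1 array left out), against 7 on numbers 2 and 3 only, where TLR6, TLR8 and MYD88 were added. Doxycycline in PMA, doxycycline in vehicle, their average and the interaction gave 0 called members under every alternative run, the replicate block over numbers 1 to 3 and that over 6 pairs included; with 6 pairs the lowest adjusted p in PMA was 0.0807, for TLR2. The replicate block over numbers 1 to 3 changed no call of PMA either, with 5 called members in each comparison. No called difference turned its direction. ZXDC had averaged differences of -0.30 and -0.33 on its other probe sets that lost the call, with exact permutation p of 0.105 and 0.135, and -0.39 on numbers 2 and 3 only, with p of 0.0556, the smallest that 2 arrays per group allow, so that this last test could not pass the threshold. Signals near the bottom of the range, such as TLR1 and CD14 in vehicle and TLR8 throughout, limit how well the sizes of differences are measured.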
